A study of Mus musculus with 9 samples.

Results

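The replication-dependent histone genes were followed in cultured mouse spermatogonial stem cells (SSCs) that had lost Prmt5 and then carried either mutant or wild-type PRMT5. The set holds every row of the count table whose symbol begins with Hist1h, Hist2h, Hist3h or Hist4h and that had at least 12 counts in 3 or more of the 9 libraries. Of 70 such rows in a table of 53801 genes, 61 met the count minimum: 6 of 6 H1 genes, 13 of 20 H2A, 18 of 19 H2B, 11 of 12 H3 and 13 of 13 H4. Among the 9 rows left out, Hist1h2ah came nearest, with 44 counts at most and 2 libraries at the minimum, and 7 members were just inside with 3 libraries (Hist1h2ao, Hist1h2ak, Hist2h2ac, Hist1h2bn, Hist1h2bf, Hist1h4m and Hist1h4f). By symbol the members fall into 4 groups, with 51 genes of Hist1 on chromosome 13, 6 of Hist2 on chromosome 3, 3 of Hist3 on chromosome 11 and 1 of Hist4 on chromosome 6. Hist1h2al, a processed pseudogene, lies 27.3 Mb from the other 50 Hist1 members. Of all members, 3 are annotated as pseudogenes.

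All 9 libraries are mRNA sequencing of SSCs with the genotype Prmt5 flox/flox; Rosa26-CreERT2, in which 4-hydroxytamoxifen (4OHT) activates a Cre recombinase expressed from the ubiquitous Rosa26 locus, and all were given 4OHT at 1 µM. The 4OHT group (3 libraries) had the deletion alone. The labels do not spell out MU (3 libraries) and OE (3 libraries), which were read from the paper's text as the deletion with transfected PRMT5, a catalytically dead mutant in MU and the wild type in OE. The 4OHT dose and the genotype come from the paper's text. The SSCs grow on mouse embryonic fibroblast feeder cells, cells without the deletion are not analysed here, and the sources do not say whether the 3 libraries of a group came from separate cultures, so that p-values measure only the spread between these libraries. The comparison of MU with OE asks whether the enzymatic activity of PRMT5 is needed. That of each with 4OHT asks what the returned protein and its delivery change together. The paper names lentivirus for the delivery in its rescue experiment and describes no empty-vector control. Protein and delivery therefore cannot be told apart here.

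PRMT5 places symmetric dimethylation on arginine residues, among them one near the start of histones H2A and H4. Replication-dependent histones package newly made DNA: H2A, H2B, H3 and H4 form the nucleosome core and H1 sits on the linker. Their genes occur in many near-identical copies, mostly without introns, and are transcribed in S phase. The mRNAs normally end in a short stem-loop, bound by SLBP, in place of a poly(A) tail, although some of these genes also yield longer polyadenylated mRNAs. How the mRNA of these libraries was selected is not given in the sources used here.

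Of the 61 members, 43 have the stem-loop in an annotated transcript of GENCODE vM21 (build GRCm38), found as 6 stem bases, 4 loop bases and 6 stem bases of which at least 5 pair. There are 8 forms, and 4 are printed because they divide the members by class: the 3 most frequent, and the form of Hist1h4i, the H4 gene with the most counts, which another form equals in number. The paired arms are in capitals.
H1, H2A, H2B and H3, 23 members, among them Hist1h1c and Hist3h2a: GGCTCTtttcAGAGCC
H4, 7 members, among them Hist1h4n and Hist1h4h: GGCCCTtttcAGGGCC
H1, H2B and H3, 6 members, among them Hist1h1t and Hist1h3c: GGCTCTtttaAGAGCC
H4, 2 members, Hist1h4i and Hist2h4: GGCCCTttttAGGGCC
The H4 forms are of their own kind, since the form of the 23 members was found in 0 H4 genes and that of the 7 H4 genes in no other class. In 18 members no such sequence was found in the annotated transcript, and their median annotated length was 402 bases. Hist1h2bc, the H2B gene with the most counts, is among them, with an annotated mRNA of 2 exons.

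The upstream sequences are printed for the 4 members with the most counts and for Hist1h2bg, which changed in the direction opposite to Hist1h2bc. RefSeq promoters (GRCm38.p6) were matched for 53 of the 61 members, and 8 had no entry, Hist1h2bc among them. Capitals mark 4 motifs, searched on both strands. The TATA box was searched as TATAAA, and the CCAAT box by the letters of its name. The octamer, known from H2B promoters, was searched as ATTTGCAT, and the element known from H1 promoters was searched as AAACACA. None of these contains another.
Hist1h1c, chr13:23738557-23738806, plus strand: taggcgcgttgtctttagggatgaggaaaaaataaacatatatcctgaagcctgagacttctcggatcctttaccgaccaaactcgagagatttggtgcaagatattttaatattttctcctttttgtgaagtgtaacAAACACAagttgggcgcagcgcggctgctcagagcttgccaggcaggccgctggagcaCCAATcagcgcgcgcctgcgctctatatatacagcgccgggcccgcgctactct
Between Hist1h2ac and Hist1h2bc, chr13:23683960-23684198, minus strand: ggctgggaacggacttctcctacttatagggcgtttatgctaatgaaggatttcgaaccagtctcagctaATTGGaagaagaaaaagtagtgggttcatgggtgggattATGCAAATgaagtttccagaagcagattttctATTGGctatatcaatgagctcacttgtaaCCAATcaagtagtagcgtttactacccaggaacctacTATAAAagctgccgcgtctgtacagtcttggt
Between Hist1h2ae and Hist1h2bg, chr13:23571221-23571395, plus strand: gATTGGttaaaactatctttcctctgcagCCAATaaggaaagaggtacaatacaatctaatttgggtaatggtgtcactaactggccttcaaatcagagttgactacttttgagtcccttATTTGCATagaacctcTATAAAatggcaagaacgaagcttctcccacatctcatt
Between Hist3h2bb-ps and Hist3h2a, chr11:58954513-58954684, plus strand: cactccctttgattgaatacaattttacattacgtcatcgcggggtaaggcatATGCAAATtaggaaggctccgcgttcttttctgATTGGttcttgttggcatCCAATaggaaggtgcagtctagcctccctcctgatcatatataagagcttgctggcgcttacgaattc
Hist1h4i, chr13:22041363-22041612, minus strand: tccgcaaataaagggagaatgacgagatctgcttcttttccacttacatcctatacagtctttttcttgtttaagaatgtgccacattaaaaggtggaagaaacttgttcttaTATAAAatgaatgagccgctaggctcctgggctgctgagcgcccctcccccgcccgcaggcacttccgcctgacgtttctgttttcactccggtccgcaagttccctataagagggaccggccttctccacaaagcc
In windows of 250 bases before to 50 after the start, CCAAT was present in 44 of 53 member promoters (83.0%, against 37.9% of 27025 promoters), in all 41 of H1, H2A, H2B and H3 and in 3 of 12 of H4. TATAAA was present in 32 (60.4%, against 14.2%). The octamer was present in 6 of 11 H2A and 5 of 15 H2B promoters, against 1.75% of all promoters, and in 0 of H1, H3 and H4. AAACACA was present in 5 of 6 H1, 2 of 11 H2A and 2 of 15 H2B promoters, against 7.14%, and in 0 of H3 and H4. These are matches of letters and say nothing of binding.

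Prmt5 was measured first, as a check of the labels. It was at 31.9, 30.8 and 28.2 CPM in the 4OHT libraries, 145, 147 and 146 CPM in MU and 1072, 1071 and 1085 CPM in OE, where CPM gives a gene's counts relative to the library total after TMM normalization, a scaling of libraries to a common composition. No groups overlapped. Thus MU and OE, whose PRMT5 differs in kind, also had unequal Prmt5 levels (log2 fold change -2.88, standard error 0.0515, adjusted p = 1.09e-12, edgeR's quasi-likelihood test with Benjamini-Hochberg adjustment). Library totals ran from 78751996 counts (4OHT) to 365719548 counts (MU), so that 12 counts were worth between 0.0317 and 0.158 CPM. The MU libraries were the deepest, and 46 of the 61 members reached the count minimum in 3 or more libraries outside MU. The count minimum was met in all 3 libraries by 29 members in 4OHT, 52 in MU and 34 in OE, while at a common level of 0.158 CPM the libraries held 35 to 41, 42 to 47 and 37 to 43 members, respectively. These limits cover counting error only. The median member had 18, 22 and 18 counts in the 4OHT libraries, and a read pair may be worth about 4 counts.

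Markers of the cells were counted in the same libraries. The 11 spermatogonial and germ line markers were all detected, with a summed level of 2136 to 2193 CPM in 4OHT, 2579.9 to 2674 in MU and 2807 to 2826 in OE. Of these, 4 rose in each of MU and OE (Ddx4, Dazl, Sall4 and Uchl1) and Id4 was not called. The 6 that fell in each were Gfra1, the receptor for GDNF, Ret, Nanos2, Nanos3 and the stem cell genes Zbtb16 and Etv5. Of all genes tested, 29.5% rose and 26.5% fell in MU, and 29.9% rose and 27.9% fell in OE. The 9 feeder fibroblast markers summed to 8692 to 10540 CPM in 4OHT, 4697 to 4768 in MU and 3692 to 3764 in OE, and 8 fell in MU, where Dcn rose, and 9 fell in OE. The 8 macrophage genes, in 9 rows because a symbol recurs, summed to 169 to 186, 1121 to 1153 and 2183 to 2304 CPM, and 8 rows rose in each. Of the 8 spermatocyte and spermatid markers, 3 rose in each of MU and OE (the meiotic genes Sycp1, Sycp3 and Hormad1) and 1 fell (Spo11), with sums of 69.1 to 88.2, 278 to 308 and 301 to 320.4 CPM. No marker of the 4 lists was at 0 in all libraries of a group. These cell type markers moved with the groups, and their part in the histone results below was not tested. In these bulk libraries fewer cells of a type and less mRNA per cell cannot be told apart.

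The histone mRNAs were scarce in all libraries and a few genes held most of them. The members together had 140.5 ± 5.19 CPM in 4OHT, 99.9 ± 0.437 in MU and 86.7 ± 1.09 in OE (SD, n = 3 each), which is 0.00866% to 0.014% of a library's counts. Hist1h1c alone held 41.2% of the summed CPM averaged over libraries, and Hist1h1c, Hist1h2bc and Hist3h2a together held 73.6%. A mean of 1 CPM or more was reached by 11 members and 10 CPM by 3, while 50 were below 1 CPM.

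**Figure D1:**
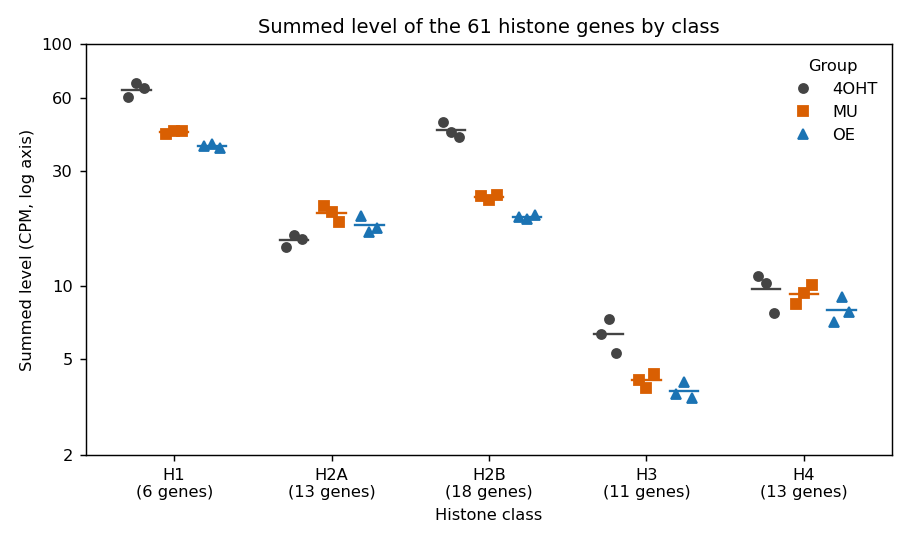
Summed CPM of the members of each histone class (log axis), with 3 libraries per group as points and the mean as a bar. The H1 and H2B sums, which rested on Hist1h1c and Hist1h2bc, lay lower in MU and OE than in 4OHT. The H2A sum, which rested on Hist3h2a, lay higher, and the H4 sums overlapped.

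By class, the H1 genes summed to 60.2, 68.8 and 65.5 CPM in the 4OHT libraries, 42.3, 43.6 and 43.7 in MU and 37.8, 38.7 and 37.2 in OE. The H2B genes summed to 47.7, 43.3 and 41.4 CPM in 4OHT, 23.5, 22.6 and 23.8 in MU and 19.3, 18.9 and 19.6 in OE. For these classes the groups did not overlap, and MU lay between 4OHT and OE. The H2A genes summed to 14.5, 16.2 and 15.7 CPM in 4OHT, 21.5, 20.2 and 18.4 in MU and 19.5, 16.8 and 17.4 in OE, with every library of MU and OE above every 4OHT library. The H3 genes summed to 6.31 ± 1.03, 4.08 ± 0.28 and 3.67 ± 0.288 CPM (SD, n = 3), with every 4OHT library above every MU and OE library. The H4 genes summed to 9.71 ± 1.72, 9.31 ± 0.853 and 7.99 ± 0.984 CPM, and here the groups overlapped. Much of the difference in the sum over all members lay in a few genes. Without the 5 members of highest CPM (Hist1h1c, Hist1h1d, Hist3h2a, Hist1h2bc and Hist1h4i), the members summed to 24.4 ± 3.0 CPM in 4OHT, 22.4 ± 0.816 in MU and 19.5 ± 1.78 in OE, and 4OHT overlapped with each of the others. Of these, the 4 in H1 summed to 1.67, 1.76 and 1.14 CPM in 4OHT, 2.4, 2.35 and 2.15 in MU and 1.93, 1.71 and 1.58 in OE. The 17 in H2B summed to 7 ± 0.527, 7.9 ± 0.504 and 7.33 ± 0.951 CPM in 4OHT, MU and OE. The lower H1 and H2B sums thus rested on Hist1h1c and Hist1h2bc, and the other genes of these classes did not lie lower together. A class sum is a description of the members and carries no p-value.

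By the group in the symbol, the 51 Hist1 genes summed to 124 ± 3.53, 78.9 ± 1.08 and 67.9 ± 0.541 CPM in 4OHT, MU and OE (122 ± 3.35, 77.9 ± 1.17 and 67 ± 0.666 without Hist1h2al), and the 6 Hist2 genes to 5.24 ± 1.41, 2.28 ± 0.247 and 2.24 ± 0.89 CPM. The Hist3 genes went the other way, with sums of 9.63, 11.3 and 10.8 CPM in 4OHT, 19.4, 18.6 and 17.4 in MU and 18.2, 15.4 and 15.7 in OE. Hist4h4, the single Hist4 gene, was at 0.0492 to 0.294 CPM with overlapping groups.

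Levels of different genes were compared per length, as CPM per kilobase of merged annotated exons, while shares of a sum are shares of CPM. Averaged over the 9 libraries, Hist1h1c was at 28.8 CPM per kb, Hist1h2bc at 18.6, Hist1h4i at 6.62, Hist3h2a at 6.45 and Hist1h2al at 3.94. The highest H3 gene, Hist2h3c1, was at 0.788 CPM per kb. Members with at least 100 annotated bases after the stem-loop, of which there were 23, had a median of 0.384 CPM per kb and held 70.1% of the summed CPM and 9 of the 11 genes at 1 CPM or more. The 20 members with fewer annotated bases after it had a median of 0.312 CPM per kb, held 4.23% and reached 1 CPM in 0 genes, and the 18 without a stem-loop in the annotation had a median of 0.401 CPM per kb. After the stem-loop, 840 bases are annotated in Hist1h1c, 1643 in Hist3h2a and 330 in Hist1h4i.

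**Figure D2:**
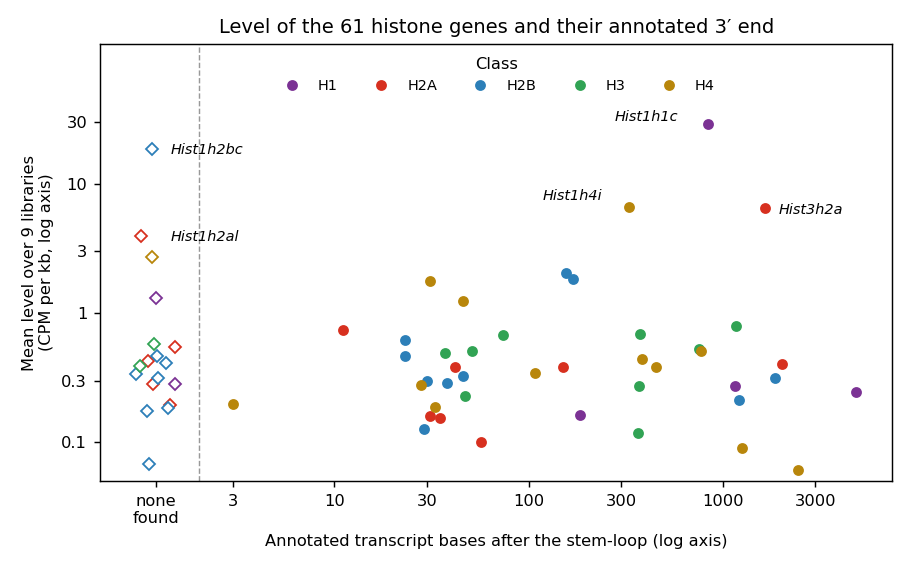
Mean level over 9 libraries (CPM per kb of merged exons, log axis) of each of the 61 members against the annotated transcript bases after its stem-loop (log axis), with open diamonds at the left for the 18 members without a stem-loop in the annotation. Hist1h1c, at 28.8 CPM per kb, has 840 annotated bases after the stem-loop, and Hist1h2bc, at 18.6, has no stem-loop in its annotated transcript.

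RNAs that normally carry no poly(A) tail were measured beside the histone genes. Of 12 such RNAs, 4 were at 0 in every 4OHT library and 2 in every MU or every OE library, and 5 passed the edgeR filter. The one with the most counts, Rn7sk, the 7SK RNA that restrains transcription elongation, was at 4.32, 4.88 and 2.04 CPM in 4OHT, 6.42, 7.42 and 5.62 in MU and 4.28, 4.62 and 3.19 in OE. It rose in MU (log2 fold change 0.79, adjusted p = 0.0154, edgeR) and overlapped in OE (log2 fold change 0.10, adjusted p = 0.756, edgeR), and was at 11.3, 19.6 and 12.2 CPM per kb in 4OHT, MU and OE. The 12 RNAs summed to 3.02 to 6.44 CPM in 4OHT, 6.89 to 8.84 in MU and 4.35 to 5.99 in OE, and the part of mRNA selection in the histone values was not tested.

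Near-identical copies limit what a count of one gene means. A median of 31.8% of the 100-base windows of a member's transcripts also occur in another annotated gene, and in 20 members the share is over 50%. It was lowest in H1 (median 0.396%) and highest in H3 (median 42.9%). How reads with several alignments were counted is not given in the sources used here. Another annotated gene overlaps 17 members, and whether the libraries kept the strand is not stated either.

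Of the 61 members, 54 passed the edgeR filter on low counts, which asks for a CPM set by 10 counts in a library of median size rather than for a number of counts in each library, and 7 did not. Against 4OHT, 6 members rose in MU (11.1% of 54, against 29.5% of all 22452 genes tested) and 9 fell (16.7%, against 26.5%), by edgeR's quasi-likelihood test at an adjusted p of 0.05 over all genes tested. In OE 4 rose (7.41%, against 29.9%) and 11 fell (20.4%, against 27.9%). Each share lay below that of all genes tested, a difference that was not tested. This turned for the genes that fell when counts were divided by 4, which left 24 members tested: 10 (41.7%, against 34.2% of 18097 genes) fell in MU and 11 (45.8%, against 34.5%) in OE, while 5 (20.8%, against 34.2%) and 4 (16.7%, against 33.9%) rose. Among the 43 tested members below 1 CPM, 3 rose and 4 fell in MU and 1 rose and 6 fell in OE, with a median standard error of 0.651 and 0.662 on the log2 scale, and among the 11 at 1 CPM or more 3 rose and 5 fell in each, with a median standard error of 0.215 and 0.218. All genes tested in the range of the low members were called in 12.5% (higher) and 10.1% (lower) of cases in MU, and in 11.7% and 13.6% in OE. At 1 CPM or more, 27.3% of the members rose and 45.5% fell in each comparison, against 36.5% and 32.2% of genes in MU and 36.1% and 33.5% in OE. The median log2 fold change of the 54 members was 0.18 in MU and 0.09 in OE, beside 0.043 and 0.018 for all genes tested. Both comparisons share the 4OHT libraries.

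**Figure D3:**
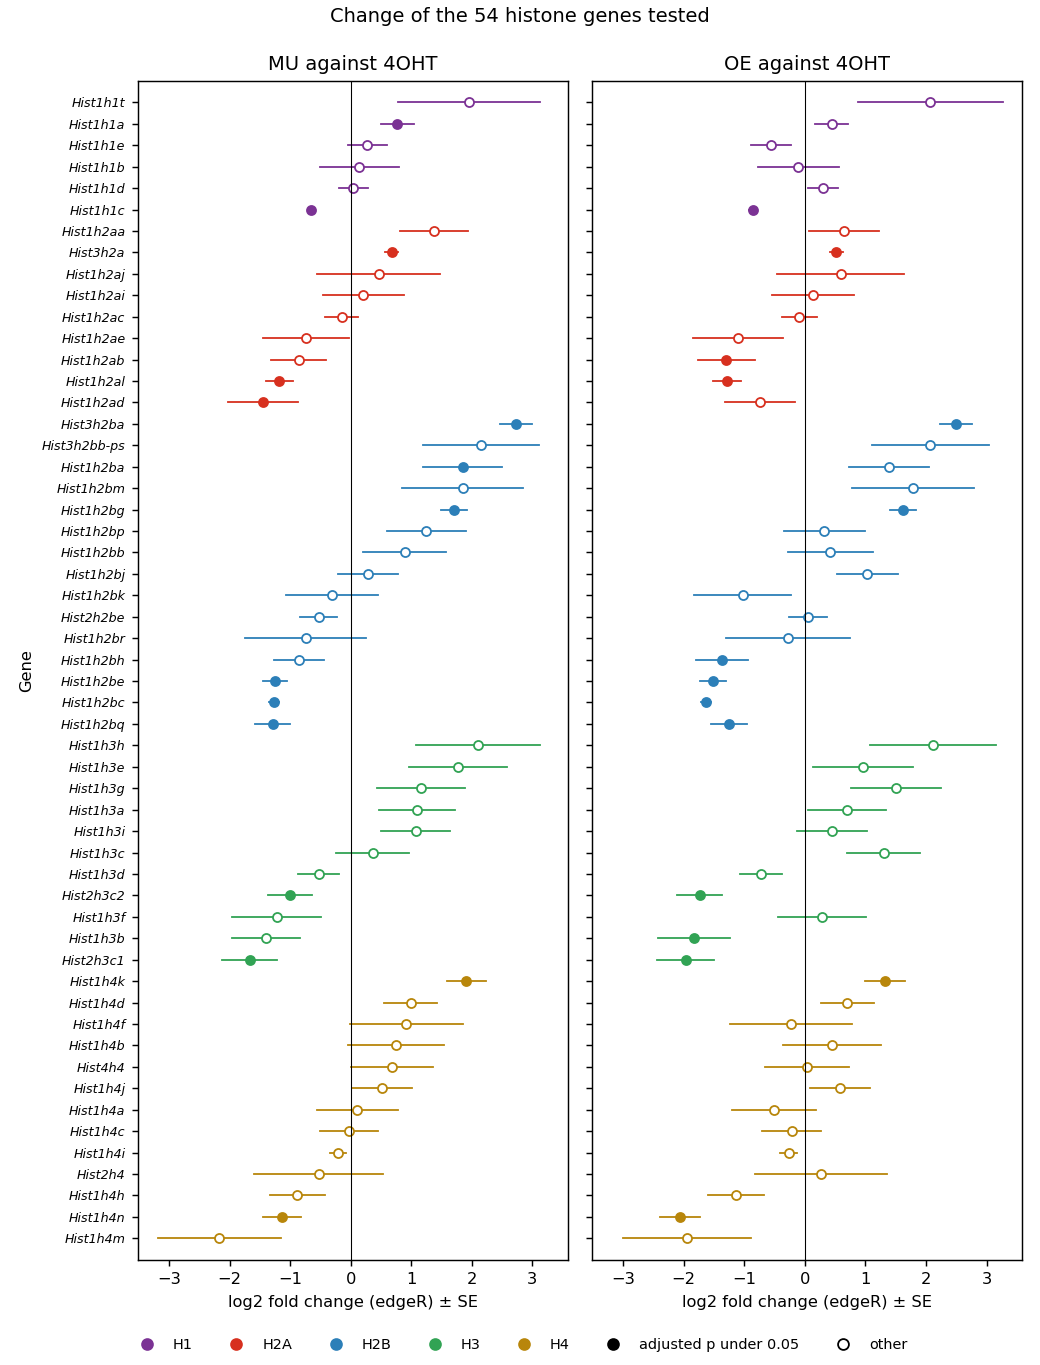
Log2 fold change with its standard error (edgeR) of each of the 54 members tested, for MU against 4OHT (left) and OE against 4OHT (right), coloured by histone class and filled where the adjusted p is under 0.05. Each class holds genes on either side of 0, and the filled points are 15 in each panel.

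In MU, the genes that rose were Hist3h2a, Hist3h2ba, Hist1h2bg, Hist1h4k, Hist1h1a and Hist1h2ba, and those that fell were Hist1h1c, Hist1h2bc, Hist1h2be, Hist1h2bq, Hist1h2al, Hist1h2ad, Hist2h3c1, Hist2h3c2 and Hist1h4n. In OE, the first 4 of these rose. Of those that fell in MU, all but Hist1h2ad fell in OE, and Hist1h2ab, Hist1h2bh and Hist1h3b also fell there. Hist1h2ad, Hist1h2bq, Hist1h2bh and Hist1h3b are named for having been called.

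**Figure D4:**
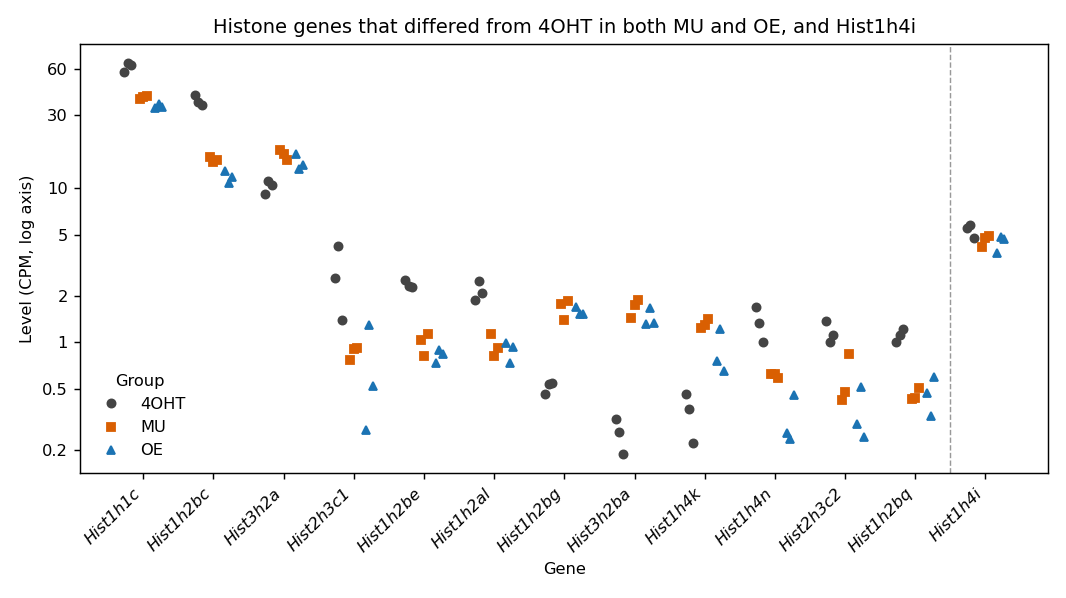
CPM (log axis) of the 12 members that differed from 4OHT in both MU and OE (adjusted p under 0.05, edgeR), and of Hist1h4i (right of the dashed line), which differed in neither. Each point is a library, 3 per group; in all 12 genes the MU and OE points lie on the same side of the 4OHT points, without overlap.

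The linker histones were dominated by Hist1h1c (ENSMUSG00000036181, chr13:23738808-23740367, a single exon), which encodes H1.2. It was at 56.9, 64.8 and 63.2 CPM in the 4OHT libraries, 38.2, 39.4 and 39.9 in MU and 33.3, 35.1 and 33.8 in OE. The 3 groups did not overlap in any library. It was 1.57-fold lower in MU than in 4OHT (log2 fold change -0.65, standard error 0.059, adjusted p = 3.92e-07, edgeR) and 1.81-fold lower in OE (log2 fold change -0.86, standard error 0.0597, adjusted p = 2.54e-08, edgeR). Between 2707 and 14905 counts lay behind each of its values, and only 5.07% of its windows occur elsewhere. Hist1h1c made up 95.1% of the H1 sum in 4OHT, 90.7% in MU and 89.9% in OE.

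Hist1h1a, which encodes H1.1 and is known to be abundant in spermatogonia, was at 0.87, 0.801 and 0.48 CPM in 4OHT, 1.26, 1.19 and 1.2 in MU and 0.812, 1.2 and 0.893 in OE. It rose in MU (log2 fold change 0.77, standard error 0.271, adjusted p = 0.0265, edgeR), without overlap with 4OHT, while OE overlapped (log2 fold change 0.44, adjusted p = 0.197, edgeR). The rise lost its call without 4OHT library 3 (log2 fold change 0.54, adjusted p = 0.106, edgeR) and without any of the MU libraries 1, 2 and 3 (adjusted p = 0.0683, 0.0647 and 0.0633, edgeR). Hist1h1d (H1.3) and Hist1h1e (H1.4) overlapped with 4OHT in MU and OE, at 1.18 to 2.58 CPM and 0.32 to 0.825 CPM over all libraries, as did Hist1h1b (H1.5) at 0.0534 to 0.347 CPM. The annotations of Hist1h1e and Hist1h2be overlap at one end on the same strand, and the genes may share reads.

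Of the H2B genes, Hist1h2bc (ENSMUSG00000018102, chr13:23684199-23692908, 2 exons) carried the largest share. It was at 40.2, 36.3 and 35.0 CPM in 4OHT, 15.9, 14.9 and 15.3 in MU and 13.0, 10.9 and 11.8 in OE. Each group lay apart from the others. It fell 2.41-fold in MU (log2 fold change -1.27, standard error 0.0803, adjusted p = 1.09e-08, edgeR) and 3.12-fold in OE (log2 fold change -1.64, standard error 0.0824, adjusted p = 8.87e-10, edgeR). Hist1h2be was at 2.53, 2.31 and 2.28 CPM in 4OHT, 1.03, 0.819 and 1.14 in MU and 0.738, 0.898 and 0.836 in OE, and likewise fell in MU (log2 fold change -1.25, adjusted p = 0.00012, edgeR) and in OE (log2 fold change -1.52, adjusted p = 2.52e-05, edgeR). Hist1h2bq fell by 1.29 and 1.25 on the log2 scale (adjusted p = 0.00188 and 0.00264, edgeR), and 94.6% of its windows occur in another gene, Hist1h2br sharing the most.

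Other H2B genes went the opposite way. Hist3h2ba (chr11:58948920-58949533) was at 0.316, 0.263 and 0.19 CPM in 4OHT, 1.44, 1.76 and 1.88 in MU and 1.32, 1.68 and 1.33 in OE. These were the largest rises of any called member, of 6.63-fold in MU (log2 fold change 2.73, standard error 0.264, adjusted p = 7.82e-07, edgeR) and 5.64-fold in OE (log2 fold change 2.50, standard error 0.265, adjusted p = 1.88e-06, edgeR). Only 4.85% of its windows occur elsewhere. Hist1h2bg (chr13:23571396-23572013) was at 0.461, 0.538 and 0.547 CPM in 4OHT, 1.77, 1.4 and 1.87 in MU and 1.69, 1.54 and 1.54 in OE. It rose 3.25-fold in MU (log2 fold change 1.70, adjusted p = 1.15e-05, edgeR) and 3.08-fold in OE (log2 fold change 1.62, adjusted p = 1.88e-05, edgeR), and of its windows 44.9% occur elsewhere, Hist1h2bc, the gene that fell, sharing the most.

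Hist3h2a (ENSMUSG00000078851, chr11:58954685-58956830) was the leading H2A gene, with 66.4% of the H2A sum in 4OHT, 82.6% in MU and 82.2% in OE. It was at 9.15, 11.1 and 10.6 CPM in 4OHT, 17.7, 16.7 and 15.2 in MU and 16.7, 13.3 and 14.1 in OE. It rose 1.61-fold in MU (log2 fold change 0.68, standard error 0.106, adjusted p = 7.34e-05, edgeR) and 1.43-fold in OE (log2 fold change 0.52, standard error 0.107, adjusted p = 0.000816, edgeR). Its annotation overlaps Trim17 on the same strand, which rose as well, from 1.16 ± 0.59 CPM in 4OHT to 2.65 ± 0.19 in MU and 3.25 ± 0.75 in OE (SD, n = 3; adjusted p = 0.00272 and 0.000522, edgeR), and the reads of the genes may not be separable. Without Hist3h2a the other 12 H2A genes summed to 5.39, 5.1 and 5.08 CPM in 4OHT, 3.74, 3.49 and 3.2 in MU and 2.82, 3.46 and 3.28 in OE, so that the higher class sum rested on this gene and the rest lay lower.

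Of the other H2A genes, Hist1h2al, annotated as a processed pseudogene, was at 1.88, 2.5 and 2.11 CPM in 4OHT, 1.14, 0.819 and 0.917 in MU and 0.985, 0.737 and 0.932 in OE. It fell in MU (log2 fold change -1.18, adjusted p = 0.000416, edgeR) and in OE (log2 fold change -1.29, adjusted p = 0.000224, edgeR). Hist1h2ac was at 0.717 to 1.45 CPM in all libraries with overlapping groups. Hist1h2ab, with 52.4% of its windows found in other genes, was at 0.29, 0.705 and 0.602 CPM in 4OHT, 0.278, 0.235 and 0.37 in MU and 0.271, 0.16 and 0.217 in OE, and fell in OE (log2 fold change -1.30, adjusted p = 0.0287, edgeR). The last call was lost without 4OHT library 2 or 3 (adjusted p = 0.11 and 0.0666, edgeR) and without OE library 2 or 3 (adjusted p = 0.0832 and 0.0578, edgeR), and in MU, where it was not called (adjusted p = 0.125, edgeR), it passed without 4OHT library 1 (log2 fold change -1.16, adjusted p = 0.0382, edgeR).

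Of the 11 H3 genes, 2 fell in MU and 3 fell in OE, and the others were not called. Hist2h3c1 was at 2.62, 4.23 and 1.39 CPM in 4OHT, 0.764, 0.903 and 0.921 in MU and 0.271, 1.3 and 0.523 in OE. It fell in MU (log2 fold change -1.67, standard error 0.459, adjusted p = 0.00673, edgeR) and in OE (log2 fold change -1.97, standard error 0.477, adjusted p = 0.0027, edgeR), although all its windows occur in another annotated gene (Gm20634 sharing the most) and the call in MU was lost without 4OHT library 2 (log2 fold change -1.21, adjusted p = 0.0586, edgeR). Gm20634 overlaps Hist2h3c1 on the same strand, and the reads of the genes may not be separable. Gm20634 was at 4.43, 0.789 and 4.09 CPM in 4OHT, 3.12, 2.22 and 1.62 in MU and 1.96, 0.0534 and 1.33 in OE. It was not called in MU or OE (adjusted p = 0.645 and 0.104, edgeR). Hist2h3c2 was at 1.37, 1.0 and 1.12 CPM in 4OHT, 0.425, 0.478 and 0.846 in MU and 0.295, 0.513 and 0.242 in OE, with a fall of 1.00 and 1.74 on the log2 scale (adjusted p = 0.0296 and 0.00125, edgeR). Of its windows 61.6% occur in other genes, Gm20634 sharing the most, as for Hist2h3c1. In MU Hist2h3c2 was not called without 4OHT library 1 (adjusted p = 0.0888, edgeR), MU library 1 (adjusted p = 0.114, edgeR) or MU library 2 (adjusted p = 0.103, edgeR). Hist1h3b, at 0.514, 0.622 and 0.558 CPM in 4OHT, 0.395, 0.111 and 0.143 in MU and 0.258, 0.118 and 0.108 in OE, fell in OE (log2 fold change -1.83, adjusted p = 0.0174, edgeR). Other genes hold 56.6% of its windows, Hist1h3d sharing the most. Hist1h3d and Hist1h3c overlapped between the groups in all comparisons, and without 4OHT library 2 Hist1h3d passed the threshold as lower in MU and OE (adjusted p = 0.0429 and 0.016, edgeR), while Hist1h3c passed as higher in OE without 4OHT library 3 (adjusted p = 0.0332, edgeR) or OE library 2 (adjusted p = 0.0427, edgeR).

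Hist1h4i (ENSMUSG00000060639) held 49.8% of the H4 sum in MU and 55.5% in OE and was at 5.55, 5.76 and 4.79 CPM in 4OHT, 4.17, 4.79 and 4.94 in MU and 3.8, 4.81 and 4.68 in OE. The groups overlapped, and the log2 fold changes of -0.21 and -0.27 did not pass the test (adjusted p = 0.202 and 0.102, edgeR). Around it, Hist1h4k rose and Hist1h4n fell. Hist1h4k was at 0.461, 0.371 and 0.223 CPM in 4OHT, 1.25, 1.29 and 1.41 in MU and 0.763, 1.23 and 0.651 in OE (log2 fold change 1.91 and 1.33, adjusted p = 0.000187 and 0.00344, edgeR). Hist1h4n was at 1.7, 1.34 and 1.0 CPM in 4OHT, 0.622, 0.626 and 0.589 in MU and 0.258, 0.235 and 0.453 in OE (log2 fold change -1.13 and -2.06, adjusted p = 0.00662 and 9.93e-05, edgeR). Hist1h4k shares 64.3% of its windows and Hist1h4n 80.7% with other genes. Hist1h4h was at 0.346 to 1.3 CPM in 4OHT, 0.412 to 0.577 in MU and 0.246 to 0.568 in OE (adjusted p = 0.113 and 0.0505, edgeR), and without 4OHT library 3 it passed as lower in MU and OE (adjusted p = 0.0114 and 0.00412, edgeR), as it did in OE without OE library 3 (adjusted p = 0.0284, edgeR).

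The germ line histones are made in testis in place of their somatic relatives: Hist1h1t encodes H1t of spermatocytes, Hist1h2aa encodes TH2A and Hist1h2ba encodes TH2B. None was above 0.578 CPM in any library. In 4OHT library 2, 0.0359 CPM is 3 counts, fewer than the about 4 that a read pair may be worth. Hist1h2ba was at 0.145, 0.0359 and 0.0446 CPM in 4OHT, 0.207, 0.32 and 0.278 in MU and 0.148, 0.171 and 0.262 in OE, and rose in MU (log2 fold change 1.85, standard error 0.651, adjusted p = 0.0265, edgeR) but was not called in OE (log2 fold change 1.39, adjusted p = 0.0888, edgeR). The call in MU was lost without 4OHT library 2 or 3 (adjusted p = 0.0899 and 0.0848, edgeR) and without MU library 2 or 3 (adjusted p = 0.107 and 0.0743, edgeR), and in OE a call was gained without 4OHT library 1 (log2 fold change 2.24, adjusted p = 0.0177, edgeR). Hist1h2aa was at 0.0923 to 0.145 CPM in 4OHT and 0.193 to 0.404 in MU (adjusted p = 0.052, edgeR), and passed without MU library 3 (adjusted p = 0.0416, edgeR) or any OE library (adjusted p = 0.0433, 0.0465 and 0.0494, edgeR). Hist1h1t was at 0.0335 to 0.0659 CPM in 4OHT, 0.101 to 0.251 in MU and 0.578, 0 and 0.0574 in OE, with 0 counts in OE library 2 (a count of 3 there is 0.0321 CPM), and was not called in MU or OE (adjusted p = 0.178 and 0.159, edgeR), with a pass in OE without OE library 2 (adjusted p = 0.0348, edgeR).

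Between MU and OE, 1 of 54 members was called, higher in MU (1.85%, against 2.12% of all genes tested), and 0 lower (against 1.06%), with 4 at an unadjusted p under 0.05 in edgeR and likewise 1 call, higher, with DESeq2. The called gene was Hist1h2bc, at 15.9, 14.9 and 15.3 CPM in MU and 13.0, 10.9 and 11.8 in OE (log2 fold change 0.37, standard error 0.0806, adjusted p = 0.0213, edgeR). Its adjusted p rose to 0.109, 0.0624 and 0.0801 without MU library 1, 2 or 3, and to 0.111 and 0.083 without OE library 2 or 3 (edgeR). Hist1h1c was higher in all 3 MU libraries as well, by 0.20 on the log2 scale (adjusted p = 0.103, edgeR), and was called without 4OHT library 1 (adjusted p = 0.0327, edgeR). For Hist3h2a the difference was 0.17 (standard error 0.104, adjusted p = 0.585, edgeR), for Hist3h2ba 0.23 (standard error 0.229, adjusted p = 0.77, edgeR) and for Hist1h2bg 0.08 (standard error 0.201, adjusted p = 0.934, edgeR), with overlapping groups in each. Of the 54 members, 43 lay below 1 CPM, and no median of all genes at that level was computed. The median over the 54 members was 0.24, beside 0.008 over all genes tested (0.0617 with no filter on low counts). This difference was not tested. The fibroblast markers were likewise higher in MU than in OE, 9 of 9 with a median of 0.36, and 7 of 9 macrophage rows were lower, with a median of -0.96.

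Many H2A and H2B genes are arranged head to head with a shared upstream region, as in the stretches printed above. Within 1000 bases 11 such pairs of members were found, 10 of them of an H2A and an H2B gene, with 173 to 660 bases between the starts. Of the 6 pairs with both genes tested, 4 had a single gene called in MU and 4 in OE, and 0 had both called in the same direction, beside the shares of members called given above (11.1% higher and 16.7% lower in MU). Few pairs could be tested, and nothing is read from this count. Hist1h2ac and Hist1h2bc, with 251 bases between their starts, were at 0.405 and 18.6 CPM per kb, a ratio of 45.8, and Hist1h2bc fell by 1.27 (MU) and 1.64 (OE) on the log2 scale while Hist1h2ac had log2 fold changes of -0.15 and -0.09. Hist1h2ae, 176 bases from Hist1h2bg, had log2 fold changes of -0.74 and -1.11 (adjusted p = 0.409 and 0.224, edgeR) where Hist1h2bg rose by 1.70 and 1.62. Hist1h2bh and Hist1h3f lay on the same side of 0 in MU (-0.85 and -1.22) and on opposite sides in OE (-1.37 and 0.28). In the pairs named next, both genes lay above 0. Hist3h2bb-ps, 173 bases from Hist3h2a, had log2 fold changes of 2.15 and 2.07 (standard error 0.954 and 0.968, adjusted p = 0.0712 and 0.0838, edgeR) beside 0.68 and 0.52 for Hist3h2a. For both genes every MU and OE library lay above the 4OHT libraries, but for Hist3h2bb-ps barely so and at few counts. It was at 0.171, 0.012 and 0 CPM in 4OHT, and its lowest value in MU and in OE was 0.172 CPM. In 4OHT library 1, 12 counts are 0.158 CPM. Hist1h2ba and Hist1h2aa, 306 bases apart, had 1.85 and 1.38 in MU, each without overlap with 4OHT. The difference between the genes of a pair was not tested. The stretches between Hist1h2ac and Hist1h2bc and between Hist1h2ae and Hist1h2bg hold the octamer, TATAAA and CCAAT.

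Genes that serve histone mRNAs were counted in the same way, beside 36.5% higher and 32.2% lower in MU and 36.1% and 33.5% in OE for genes at 1 CPM or more in the members' range. Of 17 genes for the transcription and 3′ end processing of histone mRNAs, 11 rose (64.7%) and 2 fell in MU, and 12 rose (70.6%) and 2 fell in OE (median log2 fold change 0.30 and 0.33), by edgeR at an adjusted p of 0.05. Slbp, which encodes the stem-loop binding protein, was at 123, 116 and 118 CPM in 4OHT, 173, 169 and 183 in MU and 175, 185 and 191 in OE (log2 fold change 0.56 and 0.63, adjusted p = 4.59e-07 and 1.28e-07, edgeR). Npat, the coactivator of histone transcription, rose by 0.30 and 0.33 on the log2 scale (adjusted p = 0.000347 and 0.000148, edgeR), and Casp8ap2 (FLASH), which works in 3′ end cleavage, by 0.89 and 0.92 (adjusted p = 1.58e-09 and 1.02e-09, edgeR). Lsm10 and Lsm11, subunits of the U7 particle that guides the cleavage, overlapped between the groups, at 11.7 to 13.8 CPM and 19.2 to 23.3 CPM. Of the cleavage complex, Cpsf2 and Sympk fell in both, while Cpsf3 (log2 fold change 0.18 and 0.22) and Cstf2 (0.11 and 0.19) rose in both.

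Of 9 genes for histone mRNA decay and translation, 5 rose (55.6%) and 3 fell in MU and 6 rose (66.7%) and 3 fell in OE. Eri1, the exonuclease that trims the stem-loop, was at 38.7 ± 1.69 CPM in 4OHT, 42.0 ± 2.13 in MU and 43.2 ± 0.46 in OE (SD, n = 3), and was called in OE (log2 fold change 0.16, adjusted p = 0.0309, edgeR) and not in MU (log2 fold change 0.12, adjusted p = 0.0988, edgeR). That call was lost without 4OHT library 2 or 3, MU library 2 or 3 or OE library 3 (adjusted p = 0.0787, 0.0796, 0.0632, 0.0699 and 0.121, edgeR). Of 16 chaperone and supply genes, 11 rose (68.8%) and 2 fell in MU and 12 rose (75%) and 1 fell in OE. Nasp, a chaperone of H1 and of H3 and H4, rose from 213 ± 9.48 CPM in 4OHT to 401 ± 13.7 in MU and 446 ± 4.01 in OE (log2 fold change 0.91 and 1.07, adjusted p = 1.57e-09 and 2.73e-10, edgeR). Of 22 S phase genes, such as Pcna and the Mcm helicase genes, 15 rose (68.2%) and 1 fell in MU and 19 rose (86.4%) and 2 fell in OE (median 0.33 and 0.44). Between MU and OE the log2 fold changes of these 4 lists ran from -0.17 to 0.18.

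**Figure D5:**
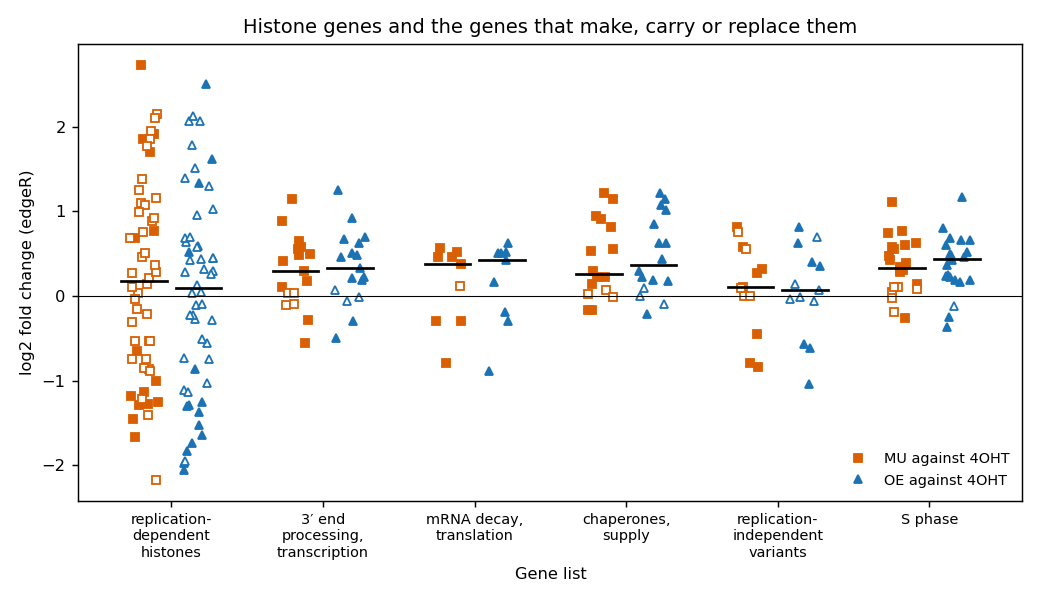
Log2 fold change (edgeR) of each tested gene of 6 lists, for MU against 4OHT (squares) and OE against 4OHT (triangles), filled where the adjusted p is under 0.05, with the median of each list as a bar. The replication-dependent histone genes spread widest, from -2.17 to 2.73 in MU, around medians of 0.18 and 0.09, and the S phase genes have medians of 0.33 and 0.44. Of the 54 histone genes, 43 lie below 1 CPM, with a median standard error of 0.651 in MU and 0.662 in OE. The value of -2.17 is that of Hist1h4m (0.0796 CPM, standard error 1.02), which was not called. The part of counting error in the spread was not tested.

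Replication-independent variants, whose mRNAs are mostly polyadenylated, include genes above every member per length. H3f3b, which encodes H3.3, was at 179 CPM per kb in 4OHT, 179 in MU and 175 in OE, and H3f3a, which encodes the same protein, at 71.4, 107 and 111 CPM per kb. H3f3a rose by 0.58 and 0.63 on the log2 scale (adjusted p = 8.68e-07 and 3.49e-07, edgeR), and H3f3b overlapped between the groups in CPM (457 to 570), with a call as lower without 4OHT library 3 in MU (log2 fold change -0.102, adjusted p = 0.0192, edgeR) and in OE (log2 fold change -0.14, adjusted p = 0.00253, edgeR). H2afz, which encodes H2A.Z, rose by 0.32 and 0.40 (adjusted p = 0.000236 and 3.54e-05, edgeR), and H2afx, which encodes H2A.X, by 0.27 and 0.35 (adjusted p = 0.00119 and 0.00016, edgeR). H1f0, the linker histone of resting and differentiated cells, was at 114, 129 and 119.5 CPM in 4OHT, 88.8, 88.1 and 87.9 in MU and 84.5, 80.8 and 78.1 in OE, and fell by 0.45 and 0.57 (adjusted p = 5.79e-06 and 5.17e-07, edgeR), as Hist1h1c did. Of the 14 variants 13 were tested, and 4 rose and 3 fell in each of MU and OE.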

How the data were processed

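The values deposited by the authors are raw counts, as whole numbers, for each gene. Reads had been trimmed (BBmap, Trimmomatic 0.39), mapped on GRCm38 (HISAT2 2.2.1) and quantified (StringTie 2.2.1), as the paper's methods state. How these became whole-number counts is not given in the sources used here. Values of 4 are in excess of 3 and 5, so that a read pair may be worth about 4 counts. Groups and replicate numbers came from the labels.

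Counts were tested in R 4.3.3 with edgeR 4.0.16: filterByExpr by group (minimum count 10, minimum total 15), TMM factors, and a quasi-likelihood model with group as its only factor over all 9 libraries, which left 22452 genes. Benjamini-Hochberg adjustment ran over these genes. The alternatives were DESeq2 1.42.0, other normalizations, no filter, counts divided by 4, a replicate block, only the groups compared, and each library left out. CPM were computed from the deposited counts over TMM-scaled library sizes. Gene lengths, overlaps, stem-loops and shared 100-base windows came from GENCODE vM21, and promoters from RefSeq, in Python 3.11.15. In data simulated for each comparison with 200 changed genes, the steps were tested before use.

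Members and gene lists were chosen with earlier results of these data known. The genes named are the 4 members of highest mean CPM in each class, all H1 genes, the germ line histones, the 3 largest changes in each direction per comparison among called members of at least 1 CPM whose groups did not overlap, and 12 set genes outside the members. The 4OHT libraries enter both comparisons against 4OHT.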

Additional observations from a re-analysis of the deposited data

Results flagged for a closer look

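Hist1h2bc and Prmt5 stood out because their changes against 4OHT differed between MU and OE by a test of that difference, which is the comparison of MU with OE itself. Hist1h2bc differed by 0.37 on the log2 scale (adjusted p = 0.0213, edgeR), higher in 3 of 3 MU libraries, and its call was lost when any MU library, or OE library 2 or 3, was left out (adjusted p between 0.0624 and 0.111, edgeR). Prmt5 differed by -2.88 (adjusted p = 1.09e-12, edgeR), so that the amount of Prmt5 mRNA and the kind of PRMT5 cannot be told apart in this comparison.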

How the results depend on the processing

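In MU against 4OHT, the 15 members called became 12 to 17 when a library was left out, and in OE against 4OHT the 15 became 15 to 19. In MU against OE, the 1 call became 0 to 2: 2 without 4OHT library 1, and 0 without any MU library or OE library 2 or 3. DESeq2 called 19, 17 and 1 in the 3 comparisons, and counts divided by 4 gave 15, 15 and 1 with 24 members tested in place of 54. Over 22436 genes, DESeq2 called 6493 higher and 6430 lower in MU against 4OHT, and 6699 and 6632 in OE against 4OHT. In MU against OE it called 713 higher and 427 lower. The call between MU and OE became 2 with only the groups compared and 0 with a 1.5-fold minimum. Among the 41 members with at least 50% of windows found in no other gene, not all of them tested, 9 (5 higher, 4 lower) were called in MU and 8 (3 higher, 5 lower) in OE, since fewer members were counted. Without members that overlap another gene, an alternative chosen after seeing the data, 44 members were left, not all of them tested, and 10 were called in each. Of all genes tested, 29.5% were higher and 26.5% lower in MU, and 29.9% and 27.9% in OE. The shares of these smaller sets were not computed, and nothing is read from their counts. Over library totals in place of TMM-scaled sizes, the members summed to 134 CPM in 4OHT, 103 in MU and 88 in OE, H1 to 44.6 and H2B to 24 in MU.

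The replicate numbers did not pair the libraries (correlations of deviations from the group means between same-numbered libraries from -0.0168 to 0.0523). With a replicate block, 16, 14 and 1 members were called in MU against 4OHT, OE against 4OHT and MU against OE, and Hist1h1t in MU against OE turned to 0.9. The call of Hist1h2ab in OE was lost with it (log2 fold change -1.28, adjusted p = 0.0547, edgeR).

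Of 702 values of called named genes under the alternatives, 671 kept call and direction, 31 were no longer called and 0 turned. Of uncalled values 43 turned. With DESeq2 size factors or its Wald test H3f3b in MU turned to -0.0273, and with counts divided by 4 to -0.0288. With upper-quartile factors in OE, Lsm10 turned to 0.0717, Lsm11 to 0.0178 and H3f3b to 0.0453. Without a filter Lsm10 in OE turned to 0.0167, Npat in MU against OE to 0.00843 and Casp8ap2 to 0.0149. The cause was not tested. Hist2h3c2 in MU was not called without a filter (log2 fold change -0.93, adjusted p = 0.0596, edgeR). For the 43 tested members below 1 CPM, depth leaves a median standard error of 0.651 in MU and 0.662 in OE on the log2 scale.

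With a library left out, log2 fold changes of MU against 4OHT that turned ranged from -0.17 to 0.32 for Hist1h1d, -0.36 to 0.119 for Hist1h2ac, -0.15 to 0.91 for Hist1h3c, -0.178 to 0.75 for Hist1h1b and -0.102 to 0.06 for H3f3b. With a library left out, log2 fold changes of OE against 4OHT that turned ranged from -0.30 to 0.184 for Hist1h2ac, -0.62 to 0.495 for Hist1h1b, -0.602 to 2.66 for Hist1h1t, -0.05 to 0.0472 for Lsm10, -0.12 to 0.00679 for Lsm11 and -0.14 to 0.0242 for H3f3b. With a library left out, log2 fold changes of MU against OE that turned ranged from -0.0282 to 0.22 for Hist1h2al, -0.21 to 0.00907 for Hist1h2ac, -0.00198 to 0.20 for Hist1h2bg, -0.0522 to 1.07 for Hist2h3c1, -0.0337 to 0.13 for Hist1h4i, -0.183 to 0.75 for Hist1h1b, -0.70 to 2.56 for Hist1h1t, -0.06 to 0.000316 for Npat and -0.10 to 0.00112 for Lsm11.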
